A study of Mus musculus with 12 samples.

Results

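The genes of the lysosomal acid and cathepsin machinery were followed in osteocyte cultures: 52 protein-coding genes of the 37583 gene IDs counted. Members were chosen with earlier results of these data known. They were defined by name, as every cathepsin gene (Cts followed by 1 letter), every gene of the vacuolar proton pump and its accessory proteins (names beginning with Atp6v or Atp6ap), and Tcirg1, Acp2, Acp5, Car2, Lamp1, Lamp2, Tfeb, Tfe3 and Mitf. They comprised 18 cathepsins, 10 subunits of the membrane sector of the pump (V0, with Tcirg1), 13 subunits of its cytosolic sector (V1), 3 accessory proteins, 3 transcription factors of the MiT/TFE family and 5 other lysosomal or acid-handling genes. All 52 were matched by Ensembl ID in the 12 count tables, and the symbols of Tfeb and Tfe3 are Tcfeb and Tcfe3 in the mm9 annotation.

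The RNA came from Ocy454 cells, an osteocytic line from mouse long bone, and 3 libraries were sequenced in each of 4 groups. Control cells ("original cells" in the labels) and cells with deletion of HDAC4 and HDAC5 (DKO) were kept without flow (static) or under fluid flow shear stress (FFSS), both over 3 h. FFSS was applied by rotating the dishes on a platform, and all groups derive from a single-cell subclone that carries a temperature-sensitive T antigen, inactivated before use by raising the culture temperature. The labels do not say whether the DKO cells are 1 clone, so the deletion and the history of the line cannot be told apart, and they do not say that replicates are separate cultures, so p-values measure the spread between these libraries, which may be technical.

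The vacuolar H+-ATPase (V-ATPase) is a rotary pump: V1 hydrolyses ATP in the cytosol, and V0 carries protons across the membrane into lysosomes or, in osteoclasts, out of the cell. The acid activates cathepsins, the proteases of the lysosome, several of which also degrade bone matrix when secreted. Osteocytes are known to use part of this osteoclast-type equipment, including cathepsin K, tartrate-resistant acid phosphatase and the pump, to remove and replace the matrix around their lacunae (perilacunar remodelling), and TFEB, TFE3 and MITF are known activators of lysosomal genes.

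Between 17585225 and 19174118 reads were assigned to genes per library. One library stood apart: replicate 1 of the control FFSS group differed from replicates 2 and 3 by a chi-square statistic per degree of freedom of 63.8 and 58.0, against 2.02 to 6.45 for the other pairs within groups. The share of reads outside annotated genes, a sign of RNA or library quality, was 5.10% to 5.21% in control static libraries, 5.87%, 9.19% and 10.04% in control FFSS replicates 1, 2 and 3, 7.07% to 7.14% in DKO static and 7.94% to 8.56% in DKO FFSS. The targeted genes kept transcripts: Hdac5 was counted 2421 to 2706 times in the control static and 1461 to 1634 times in the DKO static libraries, and 1 of 2 Hdac4 IDs (ENSMUSG00000026313) 458 to 550 and 220 to 309 times. Both were lower (log2 fold change -0.65 ± 0.08 and -0.85 ± 0.14, SE, adjusted p = 7.94e-06 and 0.000102, edgeR). In the same static groups the second Hdac4 ID was counted 404 to 473 and 311 to 325 times. It was lower too (-0.39 ± 0.14, adjusted p = 0.0281, edgeR). Under FFSS the first Hdac4 ID was lower in DKO cells (-1.48 ± 0.14, adjusted p = 5.65e-07), as was the second (-0.50 ± 0.14, adjusted p = 0.00638, edgeR). The Hdac5 difference there was 0.19 ± 0.08 (adjusted p = 0.0512), and Hdac5 was lower with FFSS in control cells (-0.71 ± 0.08, adjusted p = 3.58e-05, interaction 0.85 ± 0.11, adjusted p = 0.00152, edgeR). The osteocyte markers Dmp1 and Phex were counted at least 318 and 79 times in every library, whereas Sost, which encodes sclerostin, ranged from 2 to 236 counts over the control and from 31121 to 38134 counts over the DKO libraries (means of 5.34 CPM in control static and 2062 CPM in DKO static cells). The part of these markers in the differences between genotypes was not tested. The summed level of the 10 osteocyte marker IDs was 15180 to 18580 CPM (reads of a gene scaled to the size of the library) in control static and 51370 to 58780 CPM in DKO static libraries, and 5463 to 15280 CPM in control FFSS and 54010 to 55640 CPM in DKO FFSS libraries. Most of this sum was Col1a1 (means of 17130 CPM in control static and 50440 CPM in DKO static cells). Pdpn had lower means in DKO than in control static cells (5.11 and 28.4 CPM). Mepe had 0 to 4 counts in control static and 289 to 337 counts in DKO static libraries, and Fgf23 had at most 1 count in any library. The 6 chondrocyte markers summed to 79.3 to 104 CPM and 2373 to 2963 CPM in control static and DKO static libraries, the latter mostly Col2a1 and Col10a1 (means of 1818 and 602 CPM), whereas Acan was at 5.96 and 4.97 CPM and Matn3 at 1.08 and 1.10 CPM. In bulk RNA, fewer cells of a type and less RNA per cell cannot be told apart.

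Many members were abundant, whereas Acp5, Atp6v0d2 and Car2, known from osteoclasts, were close to absent, unlike Ctsk and Tcirg1. Of the 52 members, 30 exceeded 10 CPM in control static cells and 24 exceeded 100 CPM. Per kilobase of exon, Lamp1, the most abundant glycoprotein of the lysosomal membrane, led the members at 847 ± 2.99 CPM per kb (SD, n = 3) in control static cells and was above 99.9% of the genes tested. Ctsd, the aspartic cathepsin, followed at 306 ± 5.19, then Atp6ap1 at 255 ± 5.87, Ctsl at 247 ± 12.7 and Ctsz at 244 ± 3.66 CPM per kb. The range of Ctsl (236.6 to 260.8 CPM per kb) overlapped those of Atp6ap1 and Ctsz, so its place between them is within the spread. Within the summed cathepsin level of control static cells, Ctsd took 25.9%, Ctsl 20.9%, Ctsz 20.6%, Ctsb 13.7%, Ctsa 13.2% and Ctsk, the collagen-degrading cathepsin of osteoclasts, 4.39%.

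The filter of the study, which removes genes with 0 counts in 2 or more libraries, kept 38 members and removed 14. Of the 14, 4 (Ctse, Ctsg, Ctsm and Ctsr) had no count in any library, 8 reached at most 3 counts, and 2 went higher, Ctss to 9 and Ctsf to 777 counts. A count of 0 allows up to 3 counts, a level between 0.146 and 0.178 CPM in these libraries, and this limit covers counting error only. Acp5, which encodes tartrate-resistant acid phosphatase, had at most 3 counts in any library, as had Atp6v0d2, the d subunit isoform of osteoclasts. Car2, the carbonic anhydrase that supplies protons in osteoclasts, was at 0.175 ± 0.0314 CPM in control static and 0.147 ± 0.0321 CPM in DKO static cells (n = 3), at about the level of that limit. Among 7 osteoclast markers, Calcr, Ocstamp and Tm7sf4 were likewise at or under 3 counts in every library. The sum of the 7 was 60.1 to 67.3 CPM in control static and 264 to 272 CPM in DKO static libraries, most of it from Itgb3 and Nfatc1. Of 9 blood cell markers, Ptprc, Emr1 and Tyrobp stayed at or under 3 counts, and the 9 summed to 6.08 to 7.37 and 12.1 to 12.6 CPM in the same groups.

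**Figure D1:**
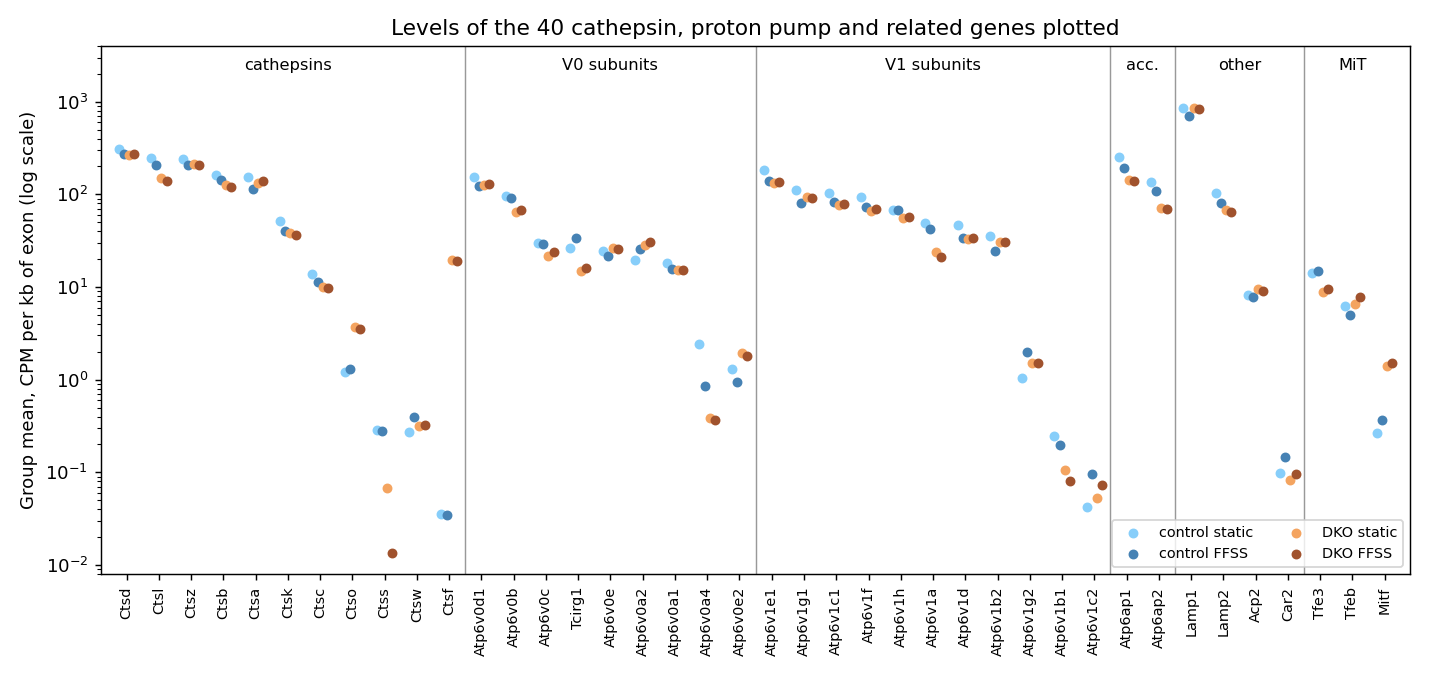
Group mean level of 40 members (CPM per kb of exon, log scale; 3 libraries per group), ordered by role and by level in control static cells; the 12 members with at most 3 counts in any library are left out. Lamp1, Ctsd, Atp6ap1, Ctsl and Ctsz lead, whereas Ctsf is near 0 in control and at 19.4 CPM per kb in DKO static cells and Car2, Ctsw and Ctss stay below 1.

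Promoter sequence was examined because lysosomal genes commonly carry an E-box to which the MiT/TFE factors bind. RefSeq windows (GRCm38.p6) of 250 bases before to 50 bases after the gene start were found for 40 of the 52 members. CACGTG, a palindrome that reads the same on both strands, occurred in 9 of the 40 (22.5%), against 8.09% of 27025 genes. The longer TCACGTGA, which contains CACGTG, occurred in 5 (12.5%; Atp6v0d1, Atp6v0e, Atp6v1a, Ctsa and Ctsd), against 1.12% of genes. The other 4 members with CACGTG were Atp6v0b, Ctsf, Ctsl and Lamp1, of which Lamp1 had 4 matches, the most of the 40, and Atp6v0b 2. Matches are described as letters in a window, and no binding was measured. Shown are Ctsd and Ctsa, the cathepsins with TCACGTGA, Atp6v1a, the member with a match that differed most between genotypes among those tested, and Ctsf, the member that differed most of all. Capitals mark CACGTG or, where present, TCACGTGA.
Ctsd, chr7:142387778-142388077, minus strand: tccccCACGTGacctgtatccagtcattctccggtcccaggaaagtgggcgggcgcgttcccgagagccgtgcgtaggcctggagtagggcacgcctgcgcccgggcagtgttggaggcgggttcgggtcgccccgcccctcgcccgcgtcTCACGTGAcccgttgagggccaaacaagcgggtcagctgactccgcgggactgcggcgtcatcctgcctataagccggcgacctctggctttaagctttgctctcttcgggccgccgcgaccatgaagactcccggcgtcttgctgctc
Ctsa, chr2:164833523-164833822, plus strand: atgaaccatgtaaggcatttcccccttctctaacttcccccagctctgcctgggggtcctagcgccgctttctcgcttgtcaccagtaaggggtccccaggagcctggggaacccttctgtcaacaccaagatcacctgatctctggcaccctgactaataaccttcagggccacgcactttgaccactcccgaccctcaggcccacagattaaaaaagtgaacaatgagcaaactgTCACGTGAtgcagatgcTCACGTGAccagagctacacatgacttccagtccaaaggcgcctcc
Atp6v1a, chr16:44139210-44139509, minus strand: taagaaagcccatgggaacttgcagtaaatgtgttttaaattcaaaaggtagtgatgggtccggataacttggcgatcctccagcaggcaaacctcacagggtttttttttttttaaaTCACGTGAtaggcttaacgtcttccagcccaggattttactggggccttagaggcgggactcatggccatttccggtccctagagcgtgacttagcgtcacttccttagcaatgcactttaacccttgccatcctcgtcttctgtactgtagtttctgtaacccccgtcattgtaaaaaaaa
Ctsf, chr19:4854915-4855214, plus strand: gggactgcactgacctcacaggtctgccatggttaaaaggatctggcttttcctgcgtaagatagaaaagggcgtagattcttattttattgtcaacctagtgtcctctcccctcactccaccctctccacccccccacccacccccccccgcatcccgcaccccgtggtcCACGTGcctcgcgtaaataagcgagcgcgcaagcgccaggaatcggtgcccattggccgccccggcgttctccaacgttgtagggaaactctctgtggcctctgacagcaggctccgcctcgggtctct

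The first comparison asked how the deletion of HDAC4 and HDAC5 changed the members in static cells. Most members that changed were lower in DKO cells, by less than 2-fold, while the low-level genes Ctso and Mitf were several-fold higher. Ctsf, nearly unread in control cells, was 547-fold higher by summed counts. In edgeR, 28 of the 38 tested members had a Benjamini-Hochberg adjusted p under 0.05: 5 were higher and 23 lower, a share of 13.2% and 60.5%, where 27.0% and 27.2% of the 14904 genes tested were higher and lower. Over the 38, the log2 fold change had a median of -0.28, against 0.01 over all genes tested. A change of more than 2-fold, termed a call, was met by 2 higher and 2 lower members, against 7.98% and 7.30% of all genes. The count past the threshold was 26 with the share of reads outside genes as a covariate and 28 in DESeq2. That share did not overlap between genotypes in static cells, nor between static and FFSS libraries of either genotype. Within groups it varied mainly in control FFSS. Fits with this covariate therefore cannot tell the share apart from genotype or FFSS.

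Ctsf, a lysosomal cysteine cathepsin of the papain family (mm9 chr19:4855129-4860912), was the largest difference and was selected for description after its values were seen. The static control libraries held 0, 1 and 3 reads of it and the FFSS control libraries 4, 0 and 0, which places controls at the limit of detection. The static DKO libraries held 680, 626 and 777 reads and the FFSS DKO libraries 663, 682 and 652. The groups were separated by far more than their spread, and the summed counts gave a DKO-to-control ratio of 547 in static cells (exact 95% interval 213 to 2008) and 569 under FFSS (222 to 2090), intervals of counting error only. Because the controls held 3 libraries at 0, the filter removed Ctsf; in the edgeR fit without a filter its log2 fold change was 8.97 ± 0.34 (SE), adjusted p = 2.17e-11, a value that depends on the prior count. Ctss, the cathepsin of antigen-presenting cells, was read 7, 8 and 7 times in the static control and 2, 0 and 3 times in the static DKO libraries. It was lower in the fit without a filter (log2 fold change -1.99 ± 0.70, adjusted p = 0.0248, edgeR), at a level of a few reads.

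Ctso, another papain-family cathepsin, was read at 5.34, 5.42 and 5.89 CPM in control static and at 16.1, 15.3 and 19.4 CPM in DKO static libraries. The groups did not overlap, and the log2 fold change was 1.61 ± 0.12 (adjusted p = 6.12e-08, edgeR). Mitf, a MiT/TFE factor required for osteoclast and melanocyte development, was at 1.59, 1.51 and 1.84 CPM in control static and at 7.59, 10.04 and 8.33 CPM in DKO static libraries. Its log2 fold change was 2.39 ± 0.15 (adjusted p = 1.55e-08, edgeR), again without overlap. Tfe3 went down while Mitf went up. It fell from 131.5 ± 5.63 to 81.2 ± 2.22 CPM (n = 3), a log2 fold change of -0.70 ± 0.05 (adjusted p = 7.51e-08, edgeR). Tfeb was at 35.0 ± 3.06 and 37.4 ± 3.57 CPM, with a 95% interval of the log2 difference that included 0 (log2 fold change 0.10 ± 0.14, adjusted p = 0.585, edgeR), and with the share of reads outside genes as a covariate it was 0.35 (adjusted p = 0.00777). Tfe3 made up 68.8% of the summed MiT/TFE level per kilobase in control static and 52.4% in DKO static cells, Tfeb 29.9% and 39.3%, and Mitf 1.28% and 8.32%.

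**Figure D2:**
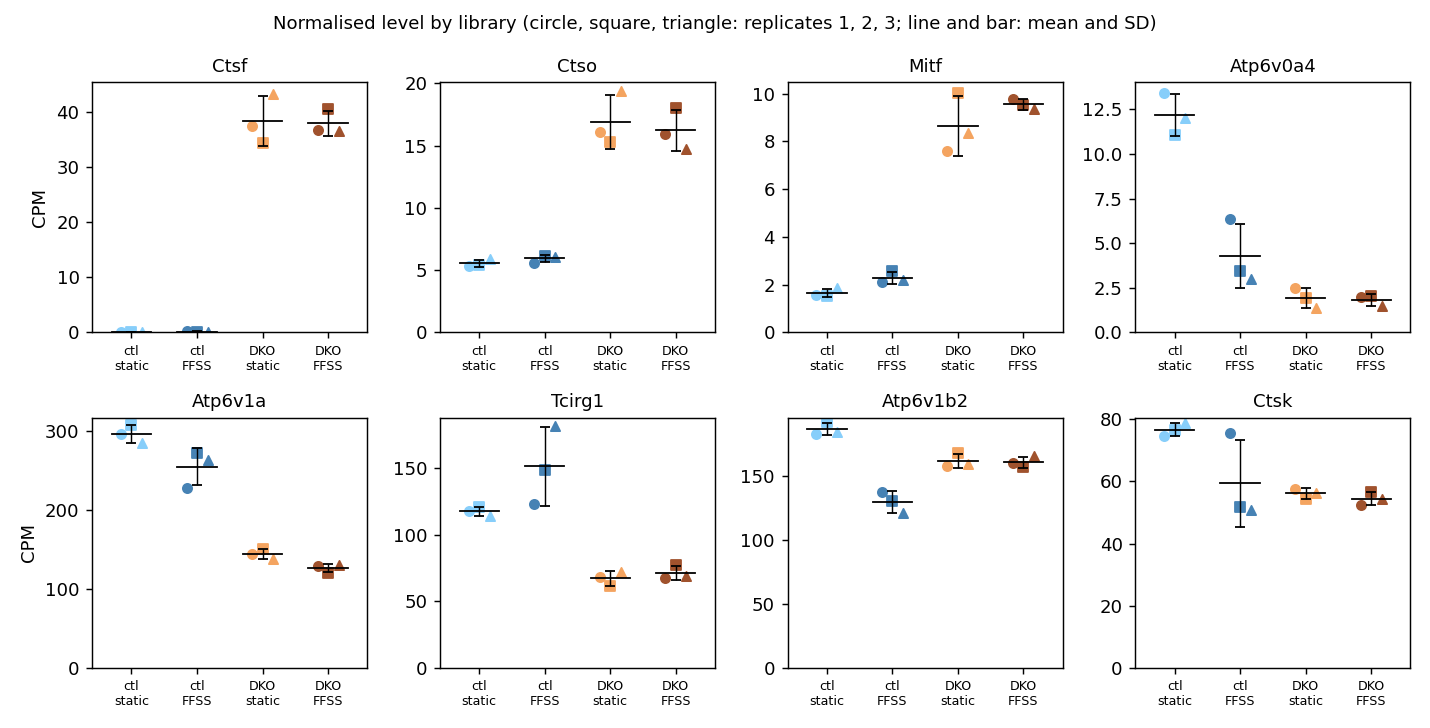
CPM of 8 members in each library, by group (ctl, control; circles, squares and triangles are replicates 1, 2 and 3; line and bar, mean and SD; every axis starts at 0). Ctsf, Ctso and Mitf are higher and Atp6v0a4, Atp6v1a and Tcirg1 lower in all DKO libraries, and control FFSS replicate 1 lies nearest the static libraries for Atp6v0a4, Tcirg1 and Ctsk.

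Among the pump genes, 13 of 20 tested subunits (65%) were lower in DKO static cells and 2 (10%) were higher, where 27.2% and 27.0% of all genes were. Atp6v1a encodes the catalytic A subunit of V1, the site of ATP hydrolysis. It was at 297, 308 and 285 CPM in control static and at 144, 151 and 138 CPM in DKO static libraries, so that every DKO library lay below every control library. The log2 fold change was -1.04 ± 0.07 (adjusted p = 2.35e-08, edgeR). Both tested accessory proteins were lower as well: Atp6ap1, an assembly factor of V0, fell from 771 ± 17.8 to 437 ± 13.6 CPM, and Atp6ap2, the prorenin receptor, from 352 ± 4.81 to 187 ± 5.65 CPM. Their log2 fold changes were -0.82 ± 0.09 and -0.91 ± 0.06 (adjusted p = 5.02e-06 and 2.90e-08, edgeR). In V1, Atp6v1d, of the central stalk, was lower by a log2 fold change of -0.53. Atp6v1b2, which forms the catalytic head together with Atp6v1a, was lower by -0.21. Atp6v1g2, a G subunit isoform best known from neurons, was higher (log2 fold change 0.57, adjusted p = 0.0373, edgeR), and its exons overlap those of Nfkbil1, which had 428% as many counts. Counting without strand leaves its level uncertain. Its adjusted p was 0.248 with the covariate, and 0.0883 to 0.124 without control static replicate 1 or 2 or DKO static replicate 2 or 3.

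The 4 alternative a subunits of V0, which set where in the cell the pump is placed, changed in different directions. Tcirg1 (a3), the isoform of the osteoclast ruffled border, was at 118, 120 and 114 CPM in control static and at 68.1, 61.2 and 72.1 CPM in DKO static libraries (log2 fold change -0.81 ± 0.12, adjusted p = 6.36e-05, edgeR). Atp6v0a4 (a4), best known from acid-secreting cells of the kidney, was at 13.4, 11.1 and 12 CPM and at 2.47, 1.92 and 1.39 CPM (log2 fold change -2.65 ± 0.26, adjusted p = 1.45e-06). In contrast, Atp6v0a2 (a2), known from the Golgi and endosomes, went from 104, 103 and 102 CPM to 148, 155 and 153 CPM (log2 fold change 0.56 ± 0.05, adjusted p = 1.83e-07). None of the 3 pairs of groups overlapped. Atp6v0a1 (a1) was lower by a log2 fold change of -0.26 (adjusted p = 0.0116, edgeR). Per kilobase, Tcirg1 therefore made up 39.6 ± 0.67% of the a subunit transcripts in control static and 25.3 ± 1.71% in DKO static cells, whereas Atp6v0a2 made up 29.2 ± 0.26% and 48.4 ± 1.51%. Exons of Atp6v0a4 overlap 2 other genes over 6.46% of their length. The more highly counted of those genes had 749% as many counts, so the level of Atp6v0a4 is uncertain under unstranded counting.

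**Figure D3:**
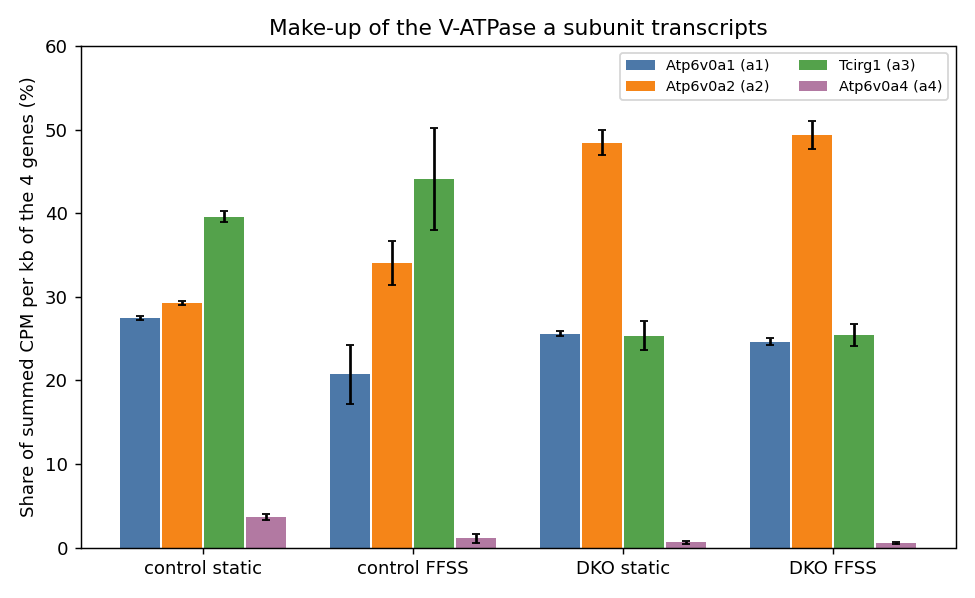
Share of each a subunit gene in the summed level of the 4 genes (CPM per kb, percent; bars, mean of 3 libraries; error bars, SD). Tcirg1 is the largest share in both control groups and Atp6v0a2 in both DKO groups, at 48.4% and 49.3%.

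In each of the other subunit families with several genes, 1 gene took most of the transcripts in every group. Atp6v0d1 made up all but 0.0345% or less of the d subunit transcripts, Atp6v1b2 at least 99.2% of the B subunit, Atp6v1c1 at least 99.88% of the C subunit and Atp6v1e1 all but 0.013% or less of the E subunit, as group means. Atp6v1g1 made up 97.5% of the G subunit in control FFSS and 98.36% or more in the other groups, and Atp6v0e made up 93.1% of the e subunit in DKO static and 95.8% in control FFSS cells, with Atp6v0e2 as the rest. Atp6v0d2 and Atp6v1b1, isoforms of acid-secreting cells, were under 1% of their families in each group mean.

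Among cathepsins and lysosomal membrane proteins, the falls were moderate. Ctsl, a broad cysteine cathepsin, was lower in DKO static cells by a log2 fold change of -0.72 ± 0.06 (adjusted p = 1.70e-07, edgeR). Ctsk was at 74.6, 76.6 and 78.8 CPM in control static and at 57.7, 54.4 and 56.2 CPM in DKO static libraries. The groups did not overlap, and Ctsk was lower by a log2 fold change of -0.45 ± 0.12 (adjusted p = 0.00556, edgeR). Over the 19 alternative fits the value lay between -0.47 and -0.17, and its adjusted p stayed under 0.05. Lamp2 was lower by -0.63 ± 0.07 on the log2 scale (adjusted p = 3.18e-06, edgeR), and Lamp1 was at 1909 ± 6.74 and 1946 ± 52.3 CPM, a log2 fold change of 0.03 (95% interval -0.12 to 0.17), which was 0.17 with the covariate (adjusted p = 0.00677, edgeR). Acp2, the lysosomal acid phosphatase, was higher by 0.22 ± 0.07 (adjusted p = 0.0224, edgeR), and the adjusted p was above 0.05 (0.0567 to 0.0993) without control static replicate 2, control static replicate 3 or DKO static replicate 2.

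**Figure D4:**
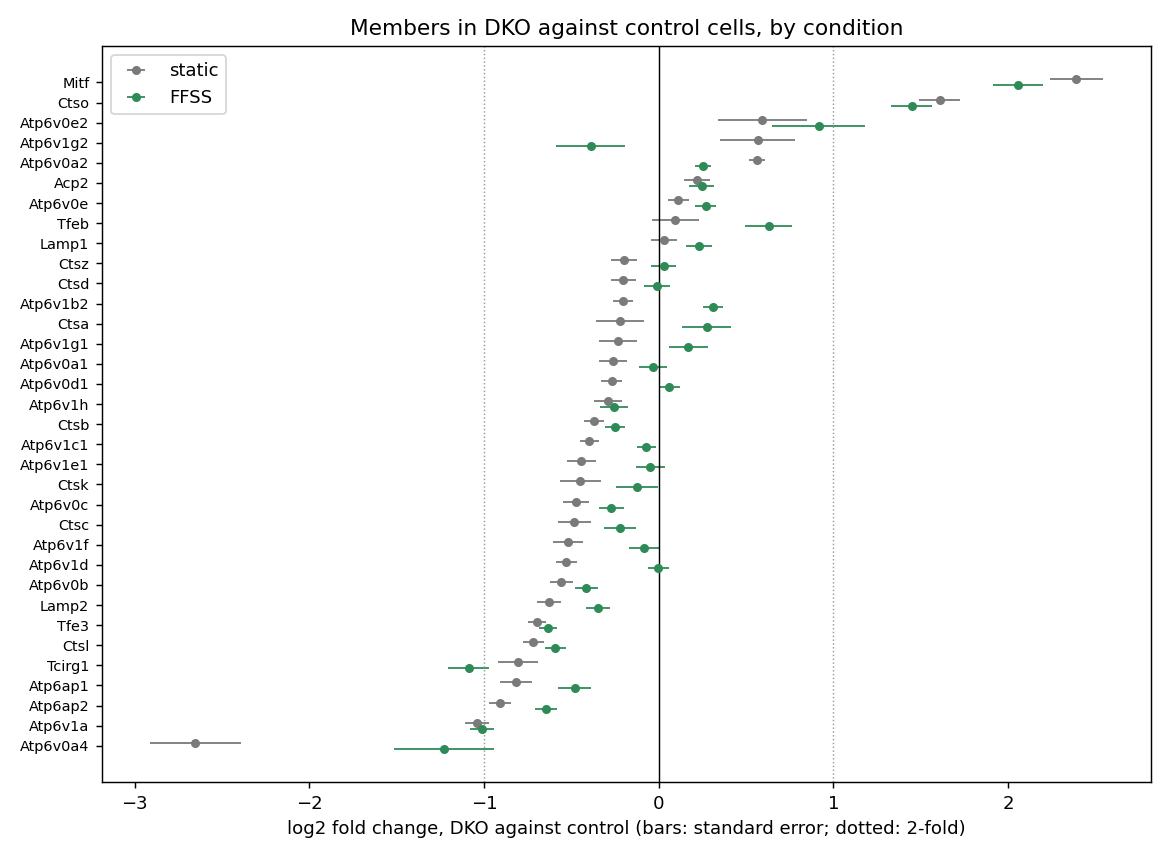
log2 fold change of DKO against control cells for 34 tested members with a group mean of at least 1 CPM, in static cells and under FFSS (points are edgeR estimates, bars standard errors and dotted lines 2-fold). Ctsf, removed by the filter, is not shown. Mitf and Ctso lie above 2-fold and Atp6v0a4 and Atp6v1a below it in both conditions, and most V1 subunits lie nearer 0 under FFSS than in static cells.

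Under FFSS, the comparison of DKO with control cells gave 9 higher (23.7%) and 12 lower (31.6%) members past the threshold. These shares were near the 27.0% and 29.6% of all genes tested. Calls of more than 2-fold were Mitf (log2 fold change 2.05 ± 0.14), Ctso (1.45 ± 0.12), Atp6v0a4 (-1.23 ± 0.29), Tcirg1 (-1.09 ± 0.12) and Atp6v1a (-1.01 ± 0.07), that is 2 higher and 3 lower, against 8.25% and 8.96% of all genes. Without control FFSS replicate 3 the calls numbered 3 in all. Over the 19 alternative fits, Atp6v0a4 lay between -1.43 and -0.83, Tcirg1 between -1.22 and -0.94 and Atp6v1a between -1.08 and -0.96. Atp6v0e2, not a call in the main fit, lay between 0.65 and 1.41, so the calls of these genes depend on the fit. Tfeb was higher under FFSS in DKO cells (0.63 ± 0.14, adjusted p = 0.00146, edgeR), as were Atp6v0e2 (0.91 ± 0.27), Atp6v1b2 (0.31 ± 0.06), Atp6v0e (0.27 ± 0.06), Atp6v0a2 (0.25 ± 0.05), Acp2 (0.24 ± 0.07) and Lamp1 (0.23 ± 0.07). Atp6ap2 (-0.64 ± 0.06), Tfe3 (-0.63 ± 0.05), Ctsl (-0.59 ± 0.06), Atp6ap1 (-0.48 ± 0.09), Atp6v0b (-0.42 ± 0.07) and Lamp2 (-0.35 ± 0.07) were lower. The adjusted p of Lamp1 was above 0.05 without control FFSS replicate 2 or 3 or DKO FFSS replicate 1, and that of Acp2 without control FFSS replicate 2 or DKO FFSS replicate 1. Ctsk had a log2 fold change of -0.13 ± 0.12 (adjusted p = 0.393, edgeR), which was 0.08 without control FFSS replicate 1.

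The next comparison asked how 3 h of FFSS changed the members in control cells. Both tested accessory proteins, both LAMP genes, 6 of 9 tested cathepsins and 9 of 20 tested pump subunits were lower, by 30.4% for Atp6v1b2 and 2.85-fold for Atp6v0a4, while Tcirg1, Atp6v0a2, Mitf and Atp6v1g2 were higher. In edgeR, 23 of 38 tested members had an adjusted p under 0.05, 4 higher and 19 lower, or 10.5% and 50% of those tested, where 17.7% and 18.1% of all genes were higher and lower. For these 38 the log2 fold change had a median of -0.24, against 0.01 over all genes tested. Of the members past the threshold, only Atp6v0a4 differed by more than 2-fold, a share to be read beside the 1.97% of all genes called lower and 3.96% called higher. By role, 6 of 9 tested cathepsins, 7 of 11 V1 subunits, 2 of 9 V0 subunits, both accessory proteins and both LAMP genes were lower, and the higher members were 2 V0 subunits, 1 V1 subunit and Mitf.

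The size of the fall differed between the 3 control FFSS libraries in the same order as their reads outside genes. The median difference of the 38 members from the static mean was -0.07, -0.28 and -0.31 on the log2 scale in replicates 1, 2 and 3. With the share of reads outside genes as a covariate, 6 members (1 higher, 5 lower) passed the threshold, and with only the 6 control libraries in the fit, 11 (2 higher, 9 lower). These 6 and 11 were all among the 23. The share was higher in every control FFSS library than in every control static library, so the covariate fit cannot separate it from FFSS. The counts were 28 without control FFSS replicate 1, and 15 without control static replicate 2, control FFSS replicate 2 or control FFSS replicate 3. The summed osteocyte markers, mostly Col1a1, were lower in the FFSS than in the static control libraries on average but overlapped them, at 5463 to 15280 and 15180 to 18580 CPM. The part of RNA quality in the fall was not tested, nor was that of the markers.

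Atp6v1b2 showed the clearest fall among the V1 subunits. It was at 183, 192 and 184 CPM in static and at 138, 131 and 120.5 CPM in FFSS libraries, without overlap, and the log2 fold change was -0.52 ± 0.06 (adjusted p = 3.03e-05, edgeR). Atp6v1d was at 179, 171 and 170 CPM and at 136, 123 and 116 CPM (log2 fold change -0.47 ± 0.06, adjusted p = 8.60e-05). All 3 FFSS libraries, replicate 1 included, lay below all static ones for both genes. Atp6v1g1 (-0.45 ± 0.11), Atp6v1e1 (-0.38 ± 0.08) and Atp6v1f (-0.37 ± 0.09), stalk subunits, and Atp6ap1 (-0.39 ± 0.09) were lower too. With the covariate their log2 fold changes shrank to -0.05, -0.07, -0.11 and -0.06, in the same order, and their adjusted p was above 0.05. Atp6v0a4 went from 13.4, 11.1 and 12 CPM to 6.37, 3.46 and 3.02 CPM, a log2 fold change of -1.51 ± 0.23 (adjusted p = 0.00046, edgeR), which was -0.72 with the covariate (adjusted p = 0.019).

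Among cathepsins, Ctsa, a serine carboxypeptidase that protects lysosomal glycosidases, was at 743, 715 and 739 CPM in static and at 707, 435 and 486 CPM in FFSS libraries. Replicate 1 lay just under the static range, and the other two far below it (log2 fold change -0.43 ± 0.14, adjusted p = 0.0299, edgeR). With the covariate its direction turned, to 0.0235 (adjusted p = 0.911). Ctsk was at 75.6, 51.7 and 50.8 CPM under FFSS, and replicate 1 fell inside the static range of 74.6 to 78.8 CPM. Its log2 fold change of -0.37 ± 0.12 (adjusted p = 0.0278, edgeR) became 0.07 with the covariate. Lamp1 was lower by -0.26 ± 0.07 and Lamp2 by -0.35 ± 0.07 (adjusted p = 0.0172 and 0.00193, edgeR). With the covariate the adjusted p was 0.851 for Lamp1 and 0.181 for Lamp2, and for Lamp1 it was 0.0539 to 0.0713 without control static replicate 1 or 3 or control FFSS replicate 2 or 3. For Ctsa, Ctsk and Tcirg1 it was 0.0562 to 0.116 when any control static library or control FFSS replicate 2 or 3 was left out.

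The members that were higher included 2 of the a subunits. Atp6v0a2 was at 104, 103 and 102 CPM in static and at 140, 137 and 135 CPM in FFSS libraries, with tight replicates in both groups (log2 fold change 0.42 ± 0.05, adjusted p = 3.45e-05, edgeR). Tcirg1 was at 123, 149 and 182 CPM under FFSS, against 118, 120 and 114 CPM in static libraries. Its log2 fold change was 0.36 ± 0.11 (adjusted p = 0.0258, edgeR), which became -0.04 with the covariate. The Tcirg1 value was 0.21 without control FFSS replicate 3 and at most 0.49 over the 19 alternative fits. Atp6v1g2 (0.96 ± 0.21, adjusted p = 0.00357) and Mitf (0.48 ± 0.17, adjusted p = 0.0468) were also higher. For Atp6v1g2 the adjusted p was 0.239 with the covariate, and that of Mitf was under 0.05 in 4 of 19 alternative fits, between 0.0374 and 0.437. Tfeb was at 35.5, 23.1 and 26.2 CPM under FFSS and at 32.1, 38.2 and 34.7 CPM in static libraries (log2 fold change -0.31 ± 0.14, adjusted p = 0.0957), which was -0.50 without control FFSS replicate 1 (adjusted p = 3.63e-05) and 0.0947 with the covariate (adjusted p = 0.711). Tfe3 had a log2 fold change of 0.06 ± 0.05 (adjusted p = 0.359).

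**Figure D5:**
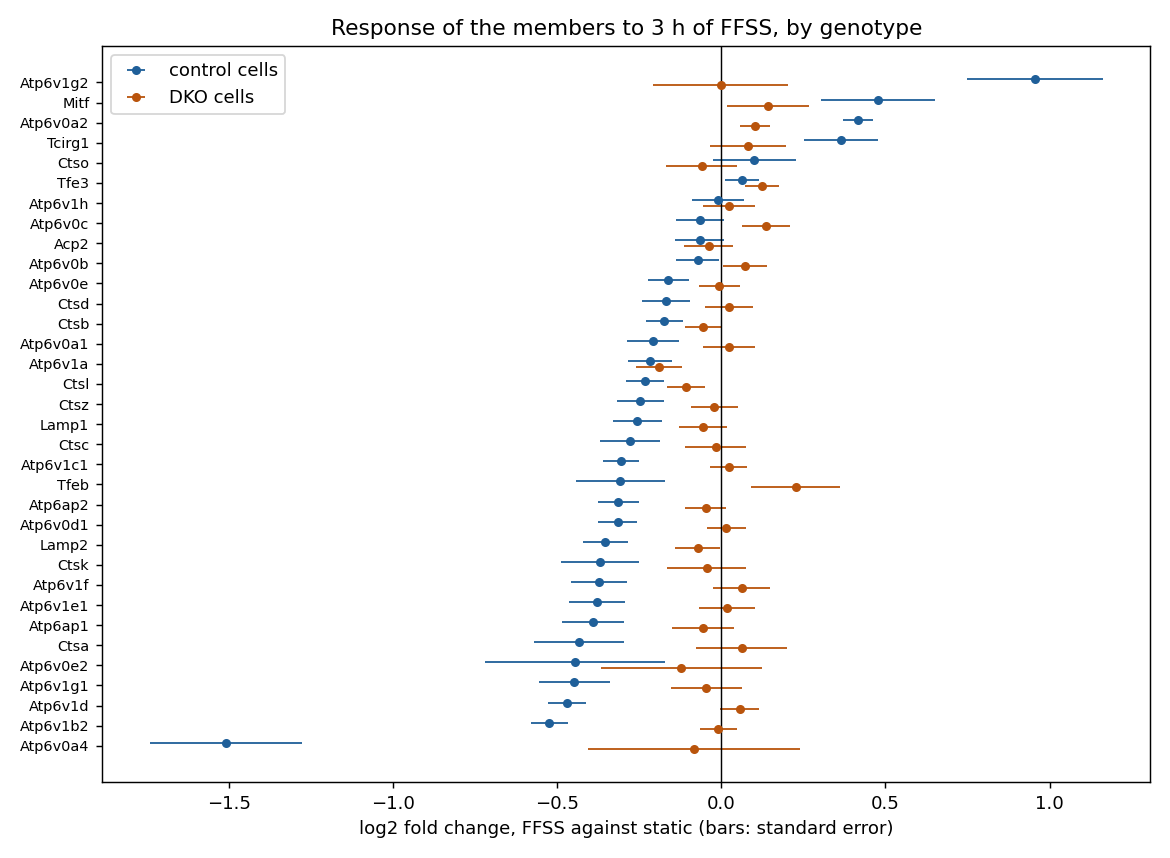
log2 fold change of FFSS against static for 34 tested members with a group mean of at least 1 CPM, in control and in DKO cells (points are edgeR estimates and bars standard errors). Ctsf, removed by the filter, is not shown. Most control values lie below 0, down to -1.51 for Atp6v0a4, and the DKO values lie between -0.19 and 0.23.

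In DKO cells, no member passed the threshold after FFSS with all 12 libraries in the fit. Their median log2 fold change was 0.01, against -0.01 over all genes. In edgeR and in DESeq2 0 of 38 had an adjusted p under 0.05, where 0.376% and 0.497% of all genes were higher and lower in edgeR and 0.0134% and 0.0738% were called. At an unadjusted p under 0.05 there were 3 in edgeR (2015 of the 14904 genes tested), and without control FFSS replicate 1 the count past the threshold was 1. It was 2 with only the 6 DKO libraries in the fit and 3 with the covariate. The largest differences among members above 1 CPM were Tfeb at 0.23 ± 0.13 and Atp6v1a at -0.19 ± 0.07 (adjusted p = 0.532 and 0.236, edgeR). For Tfeb the adjusted p was 0.0321 with only the 6 DKO libraries in the fit and 0.0139 with the covariate. Ctsk was at 57.7, 54.4 and 56.2 CPM in static and at 52.5, 56.5 and 54.2 CPM in FFSS libraries, which overlapped, and the 95% interval of its log2 difference was -0.28 to 0.19. For Atp6v1b2 that interval was -0.12 to 0.10.

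Whether the response differed between genotypes was tested with the interaction term, the DKO response minus the control response. It passed the threshold for 5 members, 4 higher and 1 lower, against 2.28% and 1.68% of all genes tested, and 0 of them differed by more than 2-fold (0.376% and 0.275% of all genes). All 5 were pump subunits. The differences were 0.53 ± 0.08 for Atp6v1d and 0.51 ± 0.08 for Atp6v1b2 (adjusted p = 0.00467 and 0.00412, edgeR), and both kept an adjusted p under 0.05 in all 18 alternative fits. Atp6v0d1, the subunit that joins the V0 ring to the stalk, differed by 0.33 ± 0.08 and Atp6v1c1, which holds V1 on V0, by 0.33 ± 0.08 (adjusted p = 0.0423 and 0.0358, edgeR). Atp6v0a2 differed by -0.31 ± 0.06 (adjusted p = 0.0196, edgeR), since it was higher with FFSS in control cells and went from 148, 155 and 153 CPM to 166, 160.5 and 164 CPM in DKO cells. The last 3 lost the threshold in 13, 9 and 9 of 18 alternative fits. Ctsk (0.32 ± 0.17, adjusted p = 0.259), Tcirg1 (-0.28 ± 0.16, adjusted p = 0.308) and Atp6v0a4 (1.43 ± 0.40, adjusted p = 0.0670) did not pass, so a difference in their response was not shown. The number past the threshold was 25 without control FFSS replicate 1, 4 without control FFSS replicate 2, 2 or 3 without any other library, and 9 in DESeq2. Without control FFSS replicate 1, Ctsk (0.54), Tcirg1 (-0.41), Tfeb (0.73), Lamp1 (0.31) and Lamp2 (0.38) passed as well.

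The genotype and FFSS comparisons use the control static libraries in common, so their values are given side by side only. Atp6v1d was lower by -0.47 with FFSS in control cells and by -0.53 in DKO static cells, and under FFSS the log2 difference between genotypes was -0.003 (173.5 ± 4.63, 125 ± 10.1, 120 ± 3.86 and 125 ± 1.65 CPM in control static, control FFSS, DKO static and DKO FFSS). Atp6v1a did not follow that order, at 297 ± 11.5, 255 ± 23.3, 144 ± 6.61 and 127 ± 5.46 CPM. Tcirg1 was highest in control FFSS, at 117 ± 3.34, 151 ± 29.4, 67.1 ± 5.55 and 71.0 ± 5.15 CPM.

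Other genes of the pathway, 87 IDs from lists of lysosomal hydrolases, lysosomal membrane and traffic genes, acid transport genes, cathepsin inhibitors, matrix proteases and autophagy genes, were read in the same fit, and 83 were tested. With FFSS in control cells, 40 were lower (48.2%) and 4 higher (4.82%), where 18.1% and 17.7% of all genes were. Their median log2 fold change was -0.22, against 0.01 over all genes. In place of 44, 19 passed the threshold (17 lower, 2 higher) with the share of reads outside genes as a covariate, 15 of them among the 44, and 68 (58 lower, 10 higher) without control FFSS replicate 1. In DKO cells 0 passed the threshold in edgeR and 1, lower, in DESeq2 (in edgeR 10 at an unadjusted p under 0.05, against 2015 of the 14904 genes tested), and the median log2 fold change was -0.06, against -0.01 over all genes. Of the 35 hydrolases and activators, 30 had a negative value there, with a median of -0.10, where 7791 of the 14904 genes did. In control cells, 24 of the same 35 were lower and 2 higher, among them Sgsh (0.56) and Aga (-0.56). Of the 19 membrane and traffic genes 11 were lower and 1 higher, of the 14 acid transport genes 3 and 1, of 3 tested inhibitors 1 and 0, of the 4 matrix proteases 1 and 0, and of the 8 autophagy genes 0 and 0. The interaction passed the threshold for 3 of the 83, 2 higher (2.41%) and 1 lower (1.20%), near the 2.28% and 1.68% of all genes, and Neu1 (0.55) and Sgsh (-0.58) were among them.

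In DKO static cells 21 of the 83 were higher (25.3%, against 27.0% of all genes) and 39 lower (47.0%, against 27.2%), so the share that was higher was near that of all genes. The genes named have the largest changes among the genes past the threshold in their lists. Among the 35 hydrolases and activators, 9 were higher and 16 lower. Sgsh, which degrades heparan sulfate, went from 10.45 ± 0.58 to 47.8 ± 0.73 CPM (log2 fold change 2.19 ± 0.08, adjusted p = 9.25e-11, edgeR). Gla, alpha-galactosidase A, went from 46.3 ± 3.66 to 19.4 ± 2.15 CPM. Car9, an extracellular carbonic anhydrase induced by hypoxia, went from 129 ± 10.4 to 5.37 ± 1.86 CPM, whereas Car12, of the same family, went from 2.52 ± 0.28 to 20.4 ± 3.93 CPM. Among inhibitors, Cst3, the secreted inhibitor cystatin C, rose from 327 ± 14.2 to 1015 ± 39.1 CPM (log2 fold change 1.63 ± 0.10, adjusted p = 6.73e-09, edgeR). Mmp13, a collagenase of osteocytes and hypertrophic chondrocytes, rose from 51.1 ± 2.30 to 252 ± 37.6 CPM, and Mmp9 was lower by a log2 fold change of -2.01 ± 0.31. Among lysosomal membrane and traffic genes, Cd68 was lower (-3.46 ± 0.18) and Sort1, a sorting receptor for lysosomal enzymes, was higher (2.75 ± 0.11). Sqstm1, an autophagy receptor, was lower by a log2 fold change of -1.05. The osteocyte and chondrocyte marker sums were higher in the same cells, and their part in these differences was not tested. Under FFSS, 32 of the 83 were higher in DKO cells (38.6%, against 27.0% of all genes) and 30 lower (36.1%, against 29.6%). The median log2 fold change between genotypes was 0.06 under FFSS and -0.18 in static cells. Of the 35 hydrolases and activators, 14 were higher and 12 lower under FFSS.

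Members with and without the E-box in the promoter window were both among those that changed. Of the tested members with a window, 8 carried CACGTG and 22 did not. Ctsf also carries CACGTG but was removed by the filter, so its 547-fold higher count in DKO static cells is not among these. With FFSS in control cells, 5 of the 8 were lower and 0 higher, and 10 of the 22 were lower and 3 higher, where 18.1% of all genes were lower and 17.7% higher. In DKO static cells 5 of the 8 and 14 of the 22 were lower, against 27.2% of all genes. In the same cells 0 of the 8 and 4 of the 22 were higher, against 27.0%. The median log2 fold changes in DKO static cells were -0.25 and -0.46. Under FFSS, 3 of the 8 were lower and 2 higher in DKO than in control cells (median 0.025). Of the 22, 7 were lower and 5 higher there (median -0.175).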

How the data were processed

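Total RNA was extracted from Ocy454 cells, and the paper states that mRNA was isolated for the libraries. These were sequenced as short single-end reads, which the authors aligned with STAR to mm9 and counted per Ensembl gene with HTSeq without strand. The files the authors deposited hold whole-number counts, neither normalised nor filtered. For 10 members, exon bases overlap another counted gene, so their counts are less certain. Symbols and coordinates come from an mm9 annotation, and promoters from RefSeq (GRCm38.p6).

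Counts were tested with edgeR 4.0.16 in R 4.3.3 (TMM factors, robust quasi-likelihood fit of all 12 libraries as 4 groups, Benjamini-Hochberg adjustment over the 14904 genes left after removal of genes with 0 counts in 2 or more libraries, as in the study's methods). Calls needed an adjusted p under 0.05 and more than 2-fold. CPM values use totals of 17585225 to 19174118 reads, scaled by TMM. Members and lists were chosen with earlier results of these data known. Members described are, per contrast, the 8 largest changes in each direction past the threshold, plus Ctsk, Acp5, Tcirg1, Atp6v0d2, Car2, Lamp1, Lamp2, Tfeb, Tfe3 and Mitf, and up to 3 genes per other list. Ctsd, Ctsf and Ctss, Atp6v0a1, Atp6v1b2 and Atp6v1d between genotypes, Atp6v0a2, Atp6v1a and Atp6v1b2 for FFSS in DKO cells, and Atp6v0a4 in the interaction were added after their values were seen. Alternatives were RLE size factors, no filter or filterByExpr, DESeq2 1.42.0, only the 6 libraries compared, a replicate block, a covariate and each library left out.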

Additional observations from a re-analysis of the deposited data

Results flagged for a closer look

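The response to FFSS differed between control and DKO cells, by the interaction term of the edgeR fit, for 5 pump subunits, 4 higher and 1 lower, where 2.28% and 1.68% of all genes were. The DKO response minus the control response on the log2 scale was 0.53 for Atp6v1d, 0.51 for Atp6v1b2, 0.33 for Atp6v0d1, 0.33 for Atp6v1c1 and -0.31 for Atp6v0a2. Atp6v1d and Atp6v1b2 stayed past the threshold in all 18 alternative fits, whereas Atp6v0d1, Atp6v1c1 and Atp6v0a2 lost it in 13, 9 and 9 of them. Leaving out 1 library gave 2 to 25 members past the threshold. With 3 libraries per group, single libraries were not tested as outliers.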

How the results depend on the processing

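Over 1424 comparisons of a described member's value with an alternative fit, 1308 kept direction and side of the threshold, 93 lost the threshold, 10 gained it and 13 changed sign. The counts of DKO against control in static cells stayed within 1.5 times under every alternative. With the share of reads outside genes as a covariate, the members past the threshold for FFSS in control cells went from 23 to 6 and those called from 1 to 0, and in DKO cells from 0 to 3. With only the 6 libraries compared, they were 11 and 2. For FFSS in control cells, the other lysosomal genes past the threshold went from 44 to 19 with the covariate and to 68 without control FFSS replicate 1, both refitted after seeing the data. DESeq2 gave 9 members and 1 call for the interaction. No shared deviation of same-numbered libraries was detected (mean correlation 0.00226, against -0.00116 for different numbers). This does not show whether they were handled together. A replicate block gave 22 for FFSS in control cells and 1 call for the interaction (0 without it). Atp6v0d1 (log2 0.33) then had an adjusted p of 0.0693 in edgeR. Leaving out 1 library gave 15 to 28 members and 1 to 2 calls for FFSS in control cells, 0 to 1 members for FFSS in DKO cells, 2 to 25 members and 0 to 2 calls for the interaction, and 3 to 5 calls for DKO against control under FFSS. With the covariate, signs changed for FFSS in control cells in Tcirg1 (-0.04), Ctsa (0.0235), Ctsk (0.0652), Car2 (-0.47) and Tfeb (0.0947), for FFSS in DKO cells in Ctsk (0.11), Tcirg1 (-0.0487), Car2 (-0.12), Lamp1 (0.0238) and Lamp2 (0.0045), and for the interaction in Car2 (0.35). Leaving out 1 library moved Car2 between -0.6385 and 0.0189 for the interaction (positive without control FFSS replicate 3) and Ctsk between -0.2263 and 0.0844 for DKO against control under FFSS (positive without control FFSS replicate 1). The share used as covariate differed between static and FFSS libraries in both genotypes, so the covariate fits cannot separate it from FFSS. The cause of these shifts was not tested. Depth limits the members at a few counts, such as Car2, Acp5 and Atp6v0d2. Ctss, with at most 9 counts, was left out by the main filter, and its difference comes from the fit without one.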
